A study of Mus musculus with 11 samples.

Results

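The 34 genes described here make cholesterol and fatty acids or control the genes that do, and they were followed by RNA-seq in primary mouse granulosa cells after Akt1 siRNA. They were taken by gene symbol from the 24490 genes of the deposited count files, all 34 were found, and all 34 passed the filter on low counts. A sterol branch holds 21 genes, 18 of them enzymes and 3 regulators (Srebf2, Scap and Insig1). A fatty acid branch holds 13 genes, 12 of them enzymes and 1 regulator (Srebf1). Granulosa cells are the somatic cells that surround the oocyte in the ovarian follicle. The cells came from ovaries of RjOrl:SWISS mice and were transfected with 30 pmol of siRNA by lipofection. The transfection mix was replaced after 5 h and RNA was taken at 30 h. Akt1 encodes a serine/threonine kinase downstream of PI3K and insulin. The 8 knockdown libraries came from 4 Akt1 siRNA pools (pool 1, pool 2, pool 3 and pool 4), with 2 libraries each. The 3 control libraries came from cells that received a scrambled siRNA with no target, called scramble here. All 11 libraries are from transfected cells of the same mouse stock, and no untransfected cells were analysed here. Each pool combined 3 of 4 Akt1 siRNAs. The missing one was siRNA 9 in pool 1, siRNA 7 in pool 2, siRNA 8 in pool 3 and siRNA 6 in pool 4, if the pools of the protocol and those of the sample titles correspond by number, which is an assumption. Whether the replicates of a group were separate cultures or animals is not stated, and p-values then cover the spread between libraries alone, which may be technical.

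Cells make cholesterol from acetyl-CoA by way of mevalonate, farnesyl diphosphate, squalene and lanosterol, and they make fatty acids from acetyl-CoA by carboxylation, chain building, elongation and desaturation. The transcription factors SREBP2 (from Srebf2) and SREBP1 (from Srebf1) switch on most of these genes. They are made as membrane proteins of the endoplasmic reticulum, SCAP escorts them to the Golgi for cleavage when sterols are low, and INSIG proteins hold SCAP back when sterols are high. AKT signalling is known from other cell types to raise SREBP activity. In granulosa cells cholesterol is also the precursor of steroid hormones.

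Values per library are CPM, the count of a gene scaled to the total of reads in genes of its library, without the ERCC spike-in sequences and without a length correction. Differences are log2 fold changes from edgeR's quasi-likelihood test with TMM scaling. A gene was called at a Benjamini-Hochberg adjusted p below 0.05 over the 14144 genes tested. The libraries held 23851293 to 32643158 reads in genes. The scarcest of the 34, Idi1, still had at least 112 reads in every library.

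Akt1, at chr12:112653821-112674884, minus strand, had 63.9 and 58.6 CPM with pool 1, 52.7 and 55.1 with pool 2, 79.3 and 81.7 with pool 3 and 55.1 and 62.4 with pool 4, against 529, 428 and 399 with scramble. The pools thus lay far below every scramble library, with a log2 difference of −2.89 ± 0.085 (SE) for the mean of the pools and an adjusted p of 3.98e-06 (without scramble replicate 1, −2.77 ± 0.037). Of 12 granulosa cell markers, 10 reached 1 CPM in some library, while Fshr and Amh stayed below it. Markers that define fat cells (Adipoq, Plin1, Cidec and Lep) had a median of 0 CPM, and Fabp4, the other one listed, had 3.67 CPM.

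1 control library stood apart. Scramble replicate 1 had a median correlation of 0.948 with the other 10 libraries across genes, against at least 0.989 for each of them. It differed from scramble replicates 2 and 3 in a way that followed transcript length. Over the 34 genes, the log2 CPM difference of scramble replicate 1 from the mean of the other 2 had a Spearman rho of −0.77 with the length of the longest coding transcript, and the same measure was −0.78 over 13108 genes. These are descriptions across genes of 1 library and not tests. Short transcripts were high in it, such as Fdps with 132, 63.4 and 57.9 CPM in scramble replicates 1, 2 and 3 and Pmvk with 46.8, 23.4 and 21.8. Long ones were low, such as Gpam with 19.1, 114 and 114 CPM and Hsd17b7 with 31.1, 73.5 and 68.6. The sterol branch has a median length of 2758 bases and a median difference of 0.034, while the fatty acid branch has 4426 bases and −0.59. Within the branches, the rho with length was −0.84 for sterol genes and weaker, at −0.53, for fatty acid genes. Acaca, at 9513 bases, differed by only −0.14. Counts of called genes against scramble, and differences of named genes for the mean of the pools, are given with this library and without it.

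**Figure D1:**
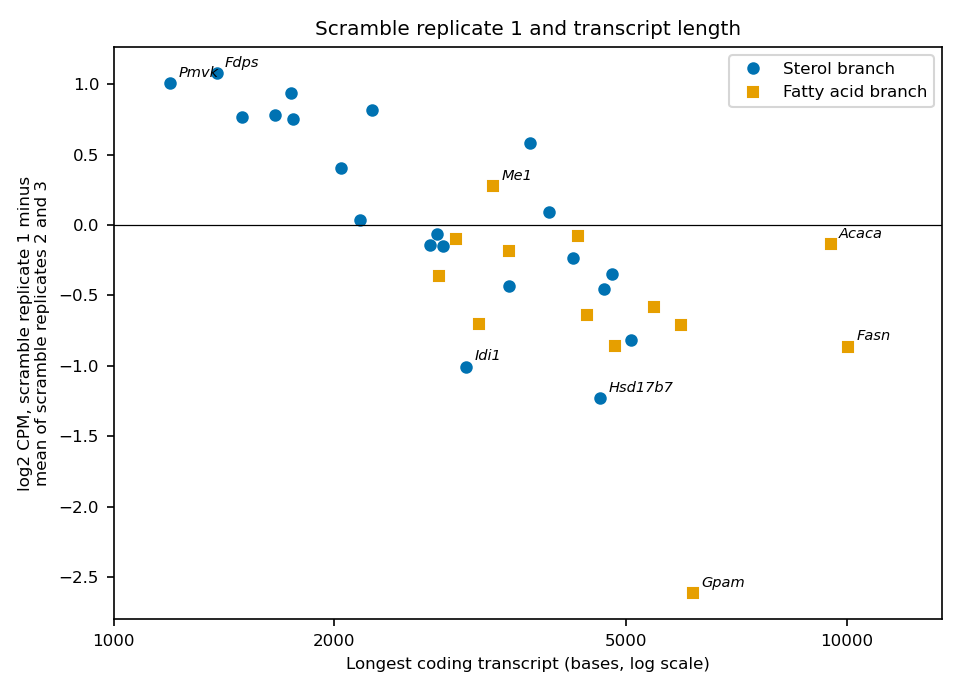
Each point is 1 of the 34 genes, plotted by the length of its longest coding transcript in bases (log axis) against the log2 CPM of scramble replicate 1 minus the mean of scramble replicates 2 and 3. Differences run from 1.08 for Fdps to −2.62 for Gpam, with short transcripts above the zero line and most long ones below it.

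Levels between genes can be compared only per length. Per kilobase of the longest coding transcript, averaged over the 11 libraries, Scd2 stood highest of the 34 at 739 CPM per kb. Scd2 is a stearoyl-CoA desaturase, which makes monounsaturated fatty acids, and it made up 57.3% of the summed CPM of the fatty acid branch. Msmo1, an enzyme that removes methyl groups from sterols, was next with 223, followed by Me1 with 186, Scap with 181 and Hmgcs1 with 162 CPM per kb. The lowest were Idi1 with 1.85, Acaca with 4.39 and Acss2 with 9.88 CPM per kb. The paralogue Scd1 reached 81.5 CPM per kb, and how reads that match both Scd genes were counted is not given in the sources used here.

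Summed CPM of the sterol branch averaged 3807 ± 156 with pool 1, 3312 ± 121 with pool 2, 3705 ± 58.9 with pool 3 and 3715 ± 23.2 with pool 4, against 4048 ± 90.3 with scramble (SD, n = 2 libraries per pool and 3 for scramble). Pool 2 held the lowest sums of the 4 pools. Fatty acid branch sums were 7188 ± 378, 6321 ± 336, 7239 ± 225 and 6956 ± 198 in pools 1 to 4, against 7265 ± 1300 in scramble (SD, same n). The scramble sums of that branch were 5779, 8194 and 7822 CPM in replicates 1, 2 and 3, so all 4 pool means lay above replicate 1 and below the other two.

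**Figure D2:**
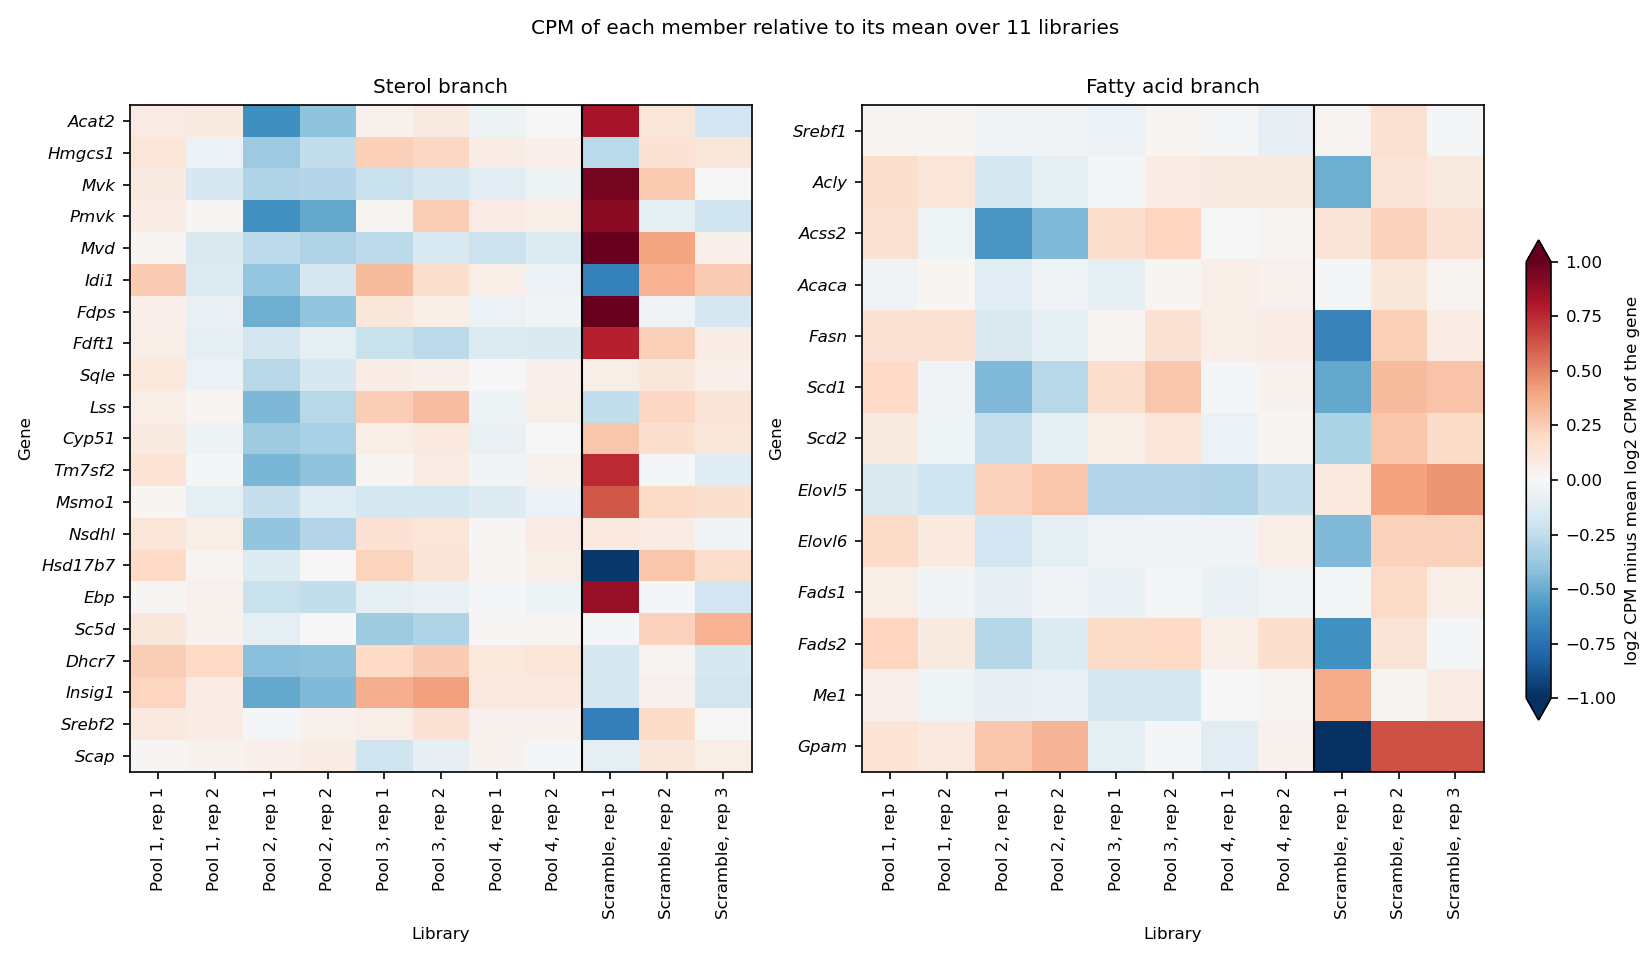
Each row is 1 gene and each column 1 library, coloured by log2 CPM minus the gene's own mean over the 11 libraries (red above, blue below; colours saturate at 1 and −1). Both pool 2 columns are blue for most genes of either branch, and scramble replicate 1 is the most strongly coloured column.

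The first comparison asked what the 4 Akt1 pools had in common against scramble. With all 11 libraries, 4 of the 21 sterol genes and 1 of the 13 fatty acid genes were lower in the mean of the pools and none was higher. The background was 6.37% of all 14144 genes called, 4.75% lower and 1.62% higher. The sterol genes called were Mvd, Fdft1, Msmo1 and Cyp51, which act in late mevalonate use, squalene formation and the first trimming steps after lanosterol. The fatty acid gene called was Elovl5, which elongates polyunsaturated fatty acids. In bulk samples, fewer cells of a type and less RNA per cell cannot be told apart.

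Mvd, the decarboxylase that makes isopentenyl diphosphate, had 47.8 and 42.7 CPM with pool 1, 39.5 and 38.3 with pool 2, 39.3 and 42.4 with pool 3 and 40.6 and 42.8 with pool 4, against 95.4, 61.9 and 48.9 with scramble. All 8 pool libraries lay below all 3 scramble libraries, and the log2 difference was −0.76 ± 0.16 (SE), adjusted p = 0.0311, and −0.47 ± 0.062 (SE) without scramble replicate 1. Fdft1, squalene synthase, had 144 and 129 CPM with pool 1, 122 and 129 with pool 2, 119 and 116 with pool 3 and 126 and 125 with pool 4, against 238, 164 and 145 with scramble. Its difference was −0.57 ± 0.13 (SE), adjusted p = 0.0372, and −0.35 ± 0.043 (SE) without that library, again without overlap between pools and scramble. Msmo1 had 455 and 421 CPM with pool 1, 384 and 413 with pool 2, 397 and 398 with pool 3 and 412 and 432 with pool 4, against 690.3, 515 and 501 with scramble, and differed by −0.50 ± 0.10 (SE), adjusted p = 0.0233, and by −0.35 ± 0.035 (SE) without that library. Cyp51, lanosterol demethylase, had 271 and 247 CPM with pool 1, 199 and 203 with pool 2, 267 and 273 with pool 3 and 243 and 255 with pool 4, against 308, 285 and 277 with scramble, and differed by −0.30 ± 0.063 (SE), adjusted p = 0.0313, and by −0.26 ± 0.035 (SE) without it. These 4 were the sterol genes whose 8 pool libraries all lay below the 3 scramble libraries, a pattern that 2.67% of all genes showed and no fatty acid gene did.

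Elovl5 had 124 and 119.8 CPM with pool 1, 161 and 166 with pool 2, 112 and 112 with pool 3 and 112 and 117 with pool 4, against 147, 182 and 187 with scramble. Pool 2 stood between the other pools and scramble replicates 2 and 3, and the mean of the pools was below scramble, with a log2 difference of −0.49 ± 0.087 (SE), adjusted p = 0.0158, and −0.60 ± 0.032 (SE) without scramble replicate 1. All these calls were narrow, and DESeq2 called 6 sterol and 3 fatty acid genes (background 12.3%). Leaving out any 1 of the 8 pool libraries left 0 sterol calls, and leaving out scramble replicate 2 left 1. The Elovl5 call was lost, leaving 0 in that branch, without scramble replicate 2, without replicate 1 of any pool, or without pool 1 replicate 2. The share of all genes called in these fits is not given here, so the losses may not be particular to these genes.

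Without scramble replicate 1, the mean of the pools was lower than scramble for 12 of 21 sterol genes and 12 of 13 fatty acid genes, and no gene of either branch was called higher. The background then was 35.7% of all genes, 19.9% lower and 15.7% higher. The median log2 difference was −0.16 for the sterol branch and −0.22 for the fatty acid branch, against 0.0048 over all genes, where the fit with all 11 libraries gave −0.30, −0.13 and −0.025. The sterol genes called were Mvd, Fdft1, Msmo1, Cyp51, Hmgcs1, Mvk, Idi1, Sqle, Lss, Hsd17b7, Sc5d and Scap. The fatty acid genes called were all except Fads2, a desaturase of polyunsaturated fatty acids, with −0.052 ± 0.045 (SE), against 0.15 ± 0.15 (SE) with all 11 libraries. This count rests on 2 scramble libraries against 8.

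Sc5d, a desaturase near the end of sterol synthesis, had 404 and 385 CPM with pool 1, 349 and 374 with pool 2, 292 and 303 with pool 3 and 375 and 379 with pool 4, against 367, 437 and 474 with scramble. The 8 pool libraries lay below scramble replicates 2 and 3 but not all below replicate 1, and the log2 difference was −0.41 ± 0.036 (SE), adjusted p = 1.01e-08 without that library and −0.30 ± 0.090 (SE), adjusted p = 0.0888 with it. Gpam, which starts glycerolipid synthesis by acylating glycerol phosphate, had 81.1 and 78.9 CPM with pool 1, 88.6 and 93.2 with pool 2, 69.1 and 72.6 with pool 3 and 68.2 and 75.6 with pool 4, against 19.1, 114 and 114 with scramble. With that library left out it was lower in the pools, with a log2 difference of −0.60 ± 0.038 (SE), adjusted p = 5.74e-11, and with it the difference was −0.13 ± 0.44 (SE), adjusted p = 0.846. Elovl6, which elongates saturated and monounsaturated fatty acids, had 116 and 109 CPM with pool 1, 88.9 and 94.8 with pool 2, 98.8 and 99.8 with pool 3 and 99.7 and 106 with pool 4, against 74.7, 119 and 119 with scramble, with −0.28 ± 0.037 (SE), adjusted p = 3.52e-06 without scramble replicate 1 and −0.084 ± 0.14 (SE), adjusted p = 0.694 with it.

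Of the desaturases, Scd1, Scd2 and Fads1 were called lower without scramble replicate 1 and not with it, while Fads2 was called in neither fit. Scd2 had 4258 and 3897 CPM with pool 1, 3398 and 3748 with pool 2, 4175 and 4352 with pool 3 and 3852 and 4070.1 with pool 4, against 3213, 4818 and 4561 with scramble, and fell by 0.30 on the log2 scale without scramble replicate 1 (adjusted p = 4.10e-06), against −0.13 ± 0.13 (SE), adjusted p = 0.516 with it. Scd1 had 444 and 377 CPM with pool 1, 284 and 319.9 with pool 2, 438 and 467 with pool 3 and 381 and 397 with pool 4, against 271, 482 and 472 with scramble, and gave −0.37 ± 0.047 (SE), adjusted p = 2.92e-06 without that library and −0.13 ± 0.17 (SE), adjusted p = 0.607 with it. Fads1 had 288 and 272 CPM with pool 1, 261 and 271 with pool 2, 264 and 275 with pool 3 and 265 and 270.4 with pool 4, against 274, 316 and 290.3 with scramble, and gave −0.22 ± 0.035 (SE), adjusted p = 5.43e-05 without it and −0.16 ± 0.071 (SE), adjusted p = 0.198 with it. For these 3 genes, as for Elovl5, Elovl6 and Gpam, all 8 pool libraries lay below scramble replicates 2 and 3. Counting either branch, that pattern held for 6 fatty acid and 5 sterol genes, against 5.29% of all genes, and no member had all 8 pool libraries above those 2 scramble libraries, against 12.7% of all genes. These counts are descriptions, with no test over the list.

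Fasn, fatty acid synthase, had 597 and 596 CPM with pool 1, 489 and 507 with pool 2, 546 and 599 with pool 3 and 565 and 569 with pool 4, against 340.2, 636 and 569.8 with scramble. Acaca, acetyl-CoA carboxylase, which feeds it with malonyl-CoA, had 40.7 and 42.3 CPM with pool 1, 38.5 and 40.7 with pool 2, 39.2 and 42.2 with pool 3 and 43.7 and 42.9 with pool 4, against 41.0, 45.2 and 42.6 with scramble. With scramble replicate 1 left out, Fasn differed by −0.17 ± 0.039 (SE) and Acaca by −0.14 ± 0.046 (SE), with adjusted p of 0.00171 and 0.0172, and pool libraries of both genes overlapped scramble replicate 3. With all libraries the Fasn difference was 0.066, so its direction turned on that 1 library, and that of Acaca was −0.10 ± 0.066 (SE), adjusted p = 0.33. The direction also turned for Acly, which makes cytosolic acetyl-CoA from citrate (−0.13 without and 0.052 with), and for Hsd17b7, a sterol ketoreductase (−0.22 without and 0.090 with). Me1, the cytosolic malic enzyme that supplies NADPH, had 631 and 590.2 CPM with pool 1, 576 and 577 with pool 2, 539.5 and 540.0 with pool 3 and 608 and 619 with pool 4, against 785, 615 and 646 with scramble, and gave −0.16 ± 0.032 (SE), adjusted p = 4.28e-04 without scramble replicate 1 and −0.26 ± 0.080 (SE), adjusted p = 0.0951 with it.

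Of the regulators, Srebf2 had 247 and 243 CPM with pool 1, 228 and 238 with pool 2, 241 and 255 with pool 3 and 237 and 238 with pool 4, against 144, 262 and 232 with scramble. Its pool libraries overlapped scramble replicates 2 and 3, and it was not called with scramble replicate 1 (0.14 ± 0.17, SE) or without it (−0.090 ± 0.039, SE). Srebf1 had 158 and 157 CPM with pool 1, 152 and 153 with pool 2, 149 and 158 with pool 3 and 154 and 147 with pool 4, against 159, 173 and 155 with scramble, and differed by −0.15 ± 0.038 (SE), adjusted p = 0.00415 without scramble replicate 1 and −0.12 ± 0.065 (SE), adjusted p = 0.245 with it. Scap had 769 and 784 CPM with pool 1, 793 and 806 with pool 2, 667 and 720.4 with pool 3 and 784 and 758 with pool 4, against 714, 829 and 800.1 with scramble, with −0.16 ± 0.034 (SE), adjusted p = 9.42e-04 without scramble replicate 1 and −0.084 ± 0.077 (SE), adjusted p = 0.466 with it. Pool 3 was the lowest group for Scap.

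The summed level of granulosa markers differed between the pools and scramble. It was 4775 to 4931 CPM with pool 1, 4794 to 5038 with pool 2, 3972 to 4128 with pool 3 and 4606 to 4778 with pool 4, against 5525 to 7465 CPM in scramble, or 5525 to 5824 CPM without scramble replicate 1. Cyp11a1 and Inha, with medians over the libraries of 2152 and 1824 CPM, held most of this sum, and Inhba was next with 359. The part of these markers in the lower lipid genes was not tested. The authors' deposited table of the pools against scramble listed Mvk, Mvd, Fdft1 and Msmo1 in the sterol branch and Me1 in the fatty acid branch with an adjusted p below 0.05, all 5 lower, out of 985 such genes among 10136 with an adjusted p. It gave no adjusted p for Pmvk, Fdps and Gpam, 3 of the genes in which scramble replicate 1 lay far from the other scramble libraries.

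Taking each pool against scramble separately, pools 1 and 2 gave no called member in the fit with all 11 libraries, where 1.93% and 0.00707% of all genes were called (1.47% lower and 0.46% higher for pool 1). For pool 2 the second share is 1 gene of 14144, which was Akt1. At an unadjusted p below 0.05, pool 1 had 6 sterol genes and 1 fatty acid gene, against 14.8% of all genes, and pool 2 had 14 sterol genes and 1 fatty acid gene, against 4.62%. DESeq2 called 0 sterol genes and 1 fatty acid gene in pool 1 (background 5.57%), and 2 sterol genes and 1 fatty acid gene in pool 2 (background 0.198%). Pool 3 had 4 sterol calls and 1 fatty acid call, against a background of 11.2%, 6.84% lower and 4.33% higher, and DESeq2 called 6 and 2 there (background 16.4%). Pool 4 had 1 fatty acid call, against 2.57%, 1.99% lower and 0.58% higher, and DESeq2 called 3 and 1 (background 6.17%). In pool 3 Fdft1 (−0.70 ± 0.18, SE), Msmo1 (−0.58 ± 0.14) and Sc5d (−0.59 ± 0.13) were lower and Insig1 (0.42 ± 0.10) was higher, with adjusted p of 0.0431, 0.032, 0.0219 and 0.0368. Without scramble replicate 1 these were −0.48 ± 0.055 for Fdft1, −0.43 ± 0.045 for Msmo1, −0.70 ± 0.047 for Sc5d and 0.37 ± 0.059 for Insig1 (SE). Elovl5 was lower in pool 3 (−0.68 ± 0.12 (SE), adjusted p = 0.0107) and in pool 4 (−0.64 ± 0.12 (SE), adjusted p = 0.0369). Each of these calls depended on single libraries. Leaving out either library of pool 1 or pool 2 left 1 sterol call in pool 3, either library of pool 3 or pool 4 left 0, and scramble replicate 2 left 2. The Elovl5 call in pool 3 was lost without either pool 3 library. In pool 4 it was lost without any 1 pool library, or without scramble replicate 2 or 3. How many of all genes were called in those fits is not given here, so these losses too may not be particular to these genes.

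In the fit without scramble replicate 1, pool 2 was lower than scramble for 18 of 21 sterol genes and 10 of 13 fatty acid genes, none was higher, and the background was 4.49% of all genes, 2.62% lower and 1.87% higher. All 34 genes had a log2 difference below 0 in pool 2, and the medians were −0.38 for the sterol branch and −0.28 for the fatty acid branch, against 0.0046 over all genes. The sterol genes not called were Ebp, Srebf2 and Scap, and the fatty acid genes not called were Srebf1, Acaca and Me1. Regulators thus made up 3 of the 6 genes not called in pool 2.

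Pool 1 had 10 sterol genes lower and 1 higher (Dhcr7), with 28.6% of all genes called, 16.7% lower and 11.9% higher. Pool 3 had 7 lower and 3 higher (Insig1, Dhcr7 and Pmvk), with 48.7% called, 25.1% lower and 23.6% higher. Pool 4 had 9 lower and none higher, with 30.8% called, 17.4% lower and 13.4% higher. Fatty acid genes were lower in 8, 11 and 9 cases in pools 1, 3 and 4, and none was higher. Sterol medians were −0.13 in pool 1, −0.074 in pool 3 and −0.12 in pool 4, and with library totals in place of TMM scaling the pool 3 median was 0.0075. Fatty acid medians were −0.15 in pool 1, −0.19 in pool 3 and −0.23 in pool 4. The 4 comparisons share the scramble libraries, and their values are given side by side for that reason.

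In the fit without scramble replicate 1, 6 sterol genes (Mvk, Mvd, Fdft1, Cyp51, Msmo1 and Sc5d) and 6 fatty acid genes (Scd1, Scd2, Elovl5, Elovl6, Fads1 and Gpam) were called lower in each of the 4 pools. The share of all genes called lower in all 4 was not counted. It cannot exceed the 2.62% of all genes called lower in pool 2, and the 4 comparisons share the same scramble libraries. Ebp, a sterol isomerase, and Srebf2 were called in no pool. Insig1 and Dhcr7 were called lower in pool 2 and higher in another pool. Insig1 differed from scramble replicates 2 and 3 by −0.43 ± 0.061 in pool 2 and 0.37 ± 0.059 in pool 3 (SE), with adjusted p of 1.55e-04 and 2.59e-05. Dhcr7 differed by −0.37 ± 0.052 in pool 2, 0.22 ± 0.051 in pool 1 and 0.21 ± 0.051 in pool 3 (SE), with adjusted p of 1.33e-04, 0.00249 and 0.00196. Pmvk differed by −0.43 ± 0.079 in pool 2 and 0.21 ± 0.074 in pool 3 (SE), with adjusted p of 0.00193 and 0.0238. With all 11 libraries Dhcr7 gave −0.32 ± 0.10 in pool 2, 0.27 ± 0.094 in pool 1 and 0.26 ± 0.094 in pool 3, Pmvk gave −0.85 ± 0.29 in pool 2 and −0.21 ± 0.29 in pool 3, and Insig1 gave −0.38 ± 0.10 in pool 2 (SE), none called.

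**Figure D3:**
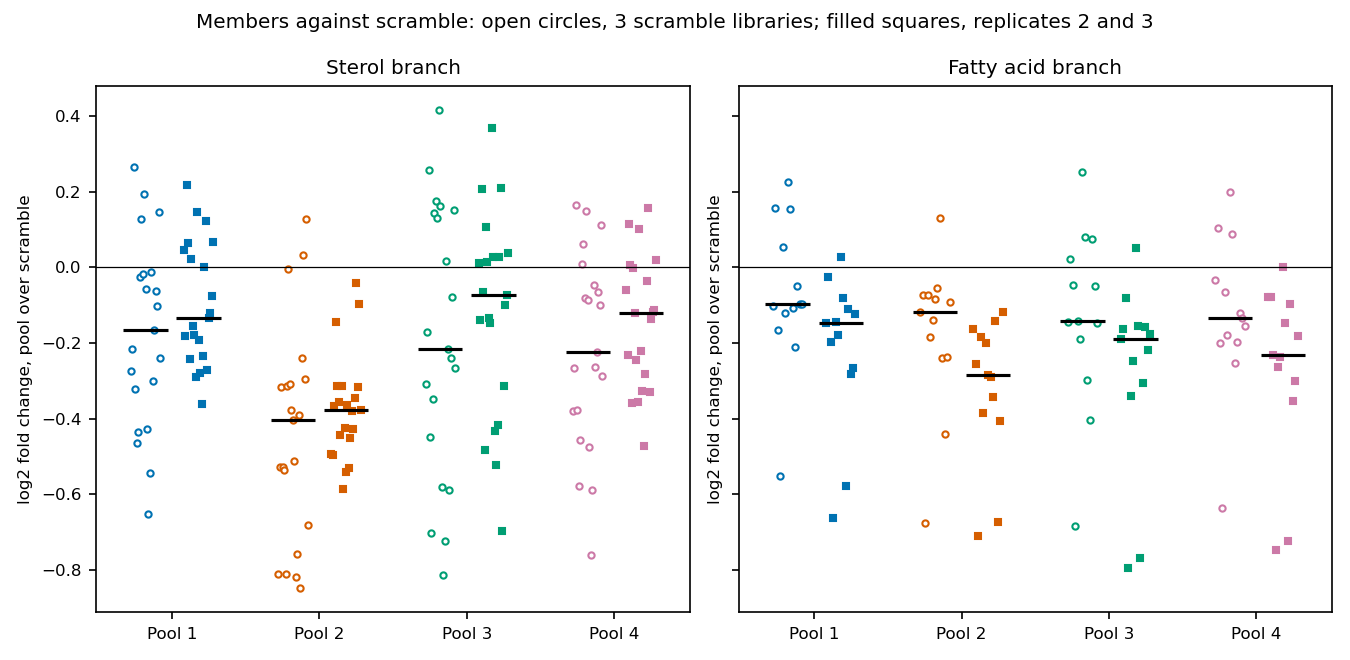
Each point is 1 gene's log2 fold change of a pool over scramble, by branch, from the fit with all 3 scramble libraries (open circles) and from the fit without scramble replicate 1 (filled squares), and lines mark branch medians. In the sterol panel the filled squares of pool 2 lie all below 0 with a median of −0.38, while those of pools 1, 3 and 4 fall on both sides of 0.

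The pools were then compared with each other, which leaves the scramble libraries out of the fit. A test of any difference among the 4 pools called 18 of 21 sterol genes and 10 of 13 fatty acid genes, against 48.4% of all genes, and DESeq2 called 16 and 9, against 35.1%. Not called were Mvd (adjusted p = 0.0576), Idi1 (0.0706) and Srebf2 (0.732) in the sterol branch, and Srebf1 (0.314), Acaca (0.313) and Fads1 (0.315) in the fatty acid branch. The lowest adjusted p in each branch were those of Insig1 (3.69e-11) and Elovl5 (1.31e-11).

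By number, each pool lacks 1 siRNA that the other 3 share, and in pool 2 this is siRNA 7. Pool 2 was set against the mean of pools 1, 3 and 4. It was lower for 15 sterol genes and 7 fatty acid genes and higher for 2 and 2. Over all genes 47.5% were called, 22.8% lower and 24.7% higher, so calls in both directions were common. DESeq2 called 14 sterol and 8 fatty acid genes, against 36.1%. The median log2 difference was −0.31 for the sterol branch and −0.14 for the fatty acid branch, against −0.012 over all genes. Insig1, Pmvk, Dhcr7, Acss2 and Acat2 had the largest decreases in pool 2, and Elovl5 and Gpam were higher in it. This contrast was chosen with earlier results of these data known.

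**Figure D4:**
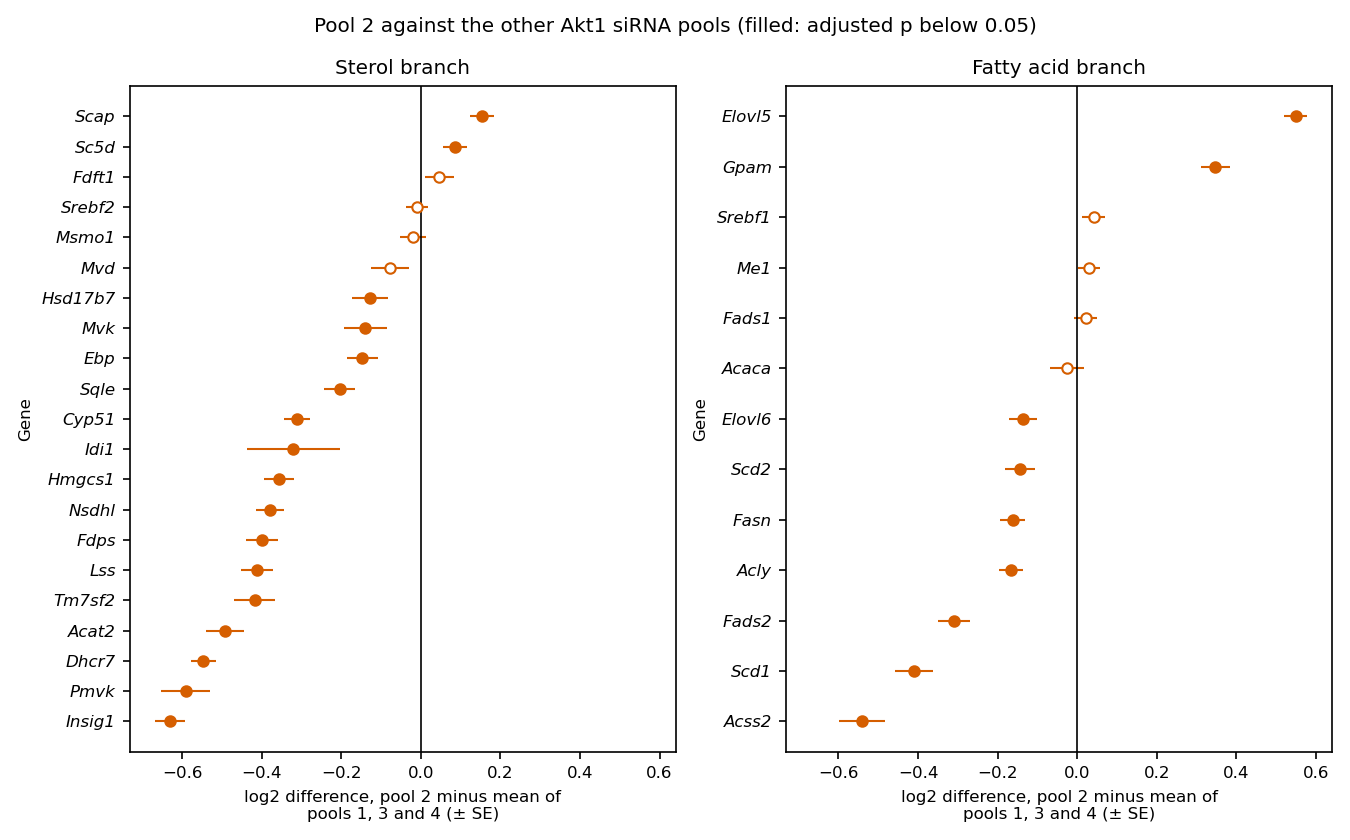
Points show the log2 difference of pool 2 from the mean of pools 1, 3 and 4 for each gene of the 2 branches, with bars of 1 SE, filled where the adjusted p was below 0.05. Of 21 sterol genes 18 lie below 0, down to −0.63 for Insig1, and Elovl5 at 0.55 and Gpam at 0.35 stand on the other side of the fatty acid panel.

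Insig1, at chr5:28071363-28078662, plus strand (mm10, GENCODE vM21), encodes the protein that retains SCAP in the endoplasmic reticulum and is itself an SREBP target. It had 65.3 and 68.8 CPM in pool 2, against 108 and 98.3 with pool 1, 120.0 and 123 with pool 3, 99.7 and 99.6 with pool 4 and 82.8, 96.2 and 82.0 in scramble. In CPM, without the TMM scaling of the tests, pool 2 was below every other library, and pools 1, 3 and 4 were above every scramble library. The share of all genes with that order was not counted. Insig1 was called higher than scramble in pool 3 alone, with scramble replicate 1 or without it. The difference of pool 2 from the mean of pools 1, 3 and 4 was −0.63 ± 0.038 (SE), adjusted p = 9.51e-12. Scap had 793 and 806 CPM in pool 2, against 769 and 784 with pool 1, 667 and 720.4 with pool 3 and 784 and 758 with pool 4, and was higher in pool 2, at 0.15 ± 0.030 (SE), adjusted p = 2.11e-04. Both Scap libraries of pool 2 lay above the other 6 pool libraries, of which those of pool 3 were the lowest. Neither SREBP gene was called: Srebf2 differed by −0.010 ± 0.029 and Srebf1 by 0.041 ± 0.030 (SE).

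The promoters of 4 members are shown because they hold the sterol regulatory element-like letters CACNCCAC, on either strand, in the 250 bases before to 50 bases after the RefSeq start site. Capitals mark the matches, and a match is not a known binding site.
Insig1 (GRCm38.p6, chr5:28071162-28071461, plus strand): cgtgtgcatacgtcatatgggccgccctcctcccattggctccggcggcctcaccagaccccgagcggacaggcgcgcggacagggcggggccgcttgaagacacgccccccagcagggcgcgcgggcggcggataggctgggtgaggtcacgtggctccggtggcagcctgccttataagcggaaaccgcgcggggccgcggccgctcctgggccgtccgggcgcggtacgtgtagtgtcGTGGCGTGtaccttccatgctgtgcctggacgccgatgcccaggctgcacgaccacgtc
Hmgcs1 (GRCm38.p6, chr13:119690101-119690400, plus strand): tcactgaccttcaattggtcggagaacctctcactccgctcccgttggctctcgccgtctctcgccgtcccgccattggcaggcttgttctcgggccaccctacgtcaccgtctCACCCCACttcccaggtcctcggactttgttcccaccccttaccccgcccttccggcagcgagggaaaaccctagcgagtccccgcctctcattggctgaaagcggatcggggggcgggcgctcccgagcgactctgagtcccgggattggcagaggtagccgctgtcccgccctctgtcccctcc
Acat2 (GRCm38.p6, chr17:12960676-12960975, minus strand): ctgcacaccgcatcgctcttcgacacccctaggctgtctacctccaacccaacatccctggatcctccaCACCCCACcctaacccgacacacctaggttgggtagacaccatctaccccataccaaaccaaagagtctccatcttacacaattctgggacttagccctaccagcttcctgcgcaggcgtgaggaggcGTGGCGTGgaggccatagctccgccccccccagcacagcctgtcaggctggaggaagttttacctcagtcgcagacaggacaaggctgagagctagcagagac
Gpam (GRCm38.p6, chr19:55127189-55127488, minus strand): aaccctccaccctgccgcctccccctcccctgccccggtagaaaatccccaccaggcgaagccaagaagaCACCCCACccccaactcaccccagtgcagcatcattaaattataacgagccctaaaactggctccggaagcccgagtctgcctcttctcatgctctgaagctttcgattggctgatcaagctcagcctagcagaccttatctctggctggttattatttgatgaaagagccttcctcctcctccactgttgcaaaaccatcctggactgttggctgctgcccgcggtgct

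The match begins 9 bases before the start site in Insig1, on the opposite strand, 136 bases before it in Hmgcs1 and 180 bases before it in Gpam. Acat2 has 2 matches, beginning 181 bases before and, on the opposite strand, 53 bases before the start site. RefSeq promoters were found for 18 sterol genes (22 promoters) and 10 fatty acid genes (14 promoters), and not for Fdps, Fdft1, Sqle, Scd1, Scd2 and Fads1. CACNCCAC was in 3 of the 22 sterol and 1 of the 14 fatty acid promoters, against 6.24% of 32851 promoters. CCAAT, the letters of the CCAAT box bound by NF-Y, was in 16 of 22 and 8 of 14, against 37.4%. GGGCGG, the GC box, was in 19 of 22 and 7 of 14, against 35.7%, and the E-box CACGTG, which is its own reverse complement, in 6 of 22 and 1 of 14, against 7.15%. The Scap promoters overlap and hold the same CACGTG, and counted by gene it was in 5 of 18 sterol and 1 of 10 fatty acid genes. CCAAT and GGGCGG were searched on both strands too. Of the 4 genes printed, Insig1, Hmgcs1 and Acat2 were lower in pool 2 than in the other pools and Gpam was higher. Most sterol genes were lower in pool 2, with a match or without one. Another RefSeq promoter of Gpam, at chr19:55099428-55099727, holds no CACNCCAC.

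At the start of the pathway, Acat2, which joins acetyl-CoA units, had 31.7 and 36.8 CPM in pool 2, against 51.4 and 51.7 with pool 1, 49.96 and 51.7 with pool 3, 46.7 and 48.7 with pool 4 and 85.7, 52.8 and 42.4 in scramble. It was below all other libraries in pool 2, at −0.49 ± 0.048 (SE), adjusted p = 2.83e-08. Hmgcs1, which makes HMG-CoA, had 431 and 467 CPM in pool 2, against 603 and 533 with pool 1, 654 and 639 with pool 3, 583 and 576 with pool 4 and 460.4, 611 and 599 in scramble. Its pool 2 libraries lay below the other pools, and scramble replicate 1 lay between them, and the difference was −0.36 ± 0.038 (SE), adjusted p = 1.13e-07. Pmvk, a kinase of the mevalonate steps, had 16.4 and 17.5 CPM in pool 2, against 26.3 and 25.1 with pool 1, 25.5 and 29.6 with pool 3, 26.4 and 26.1 with pool 4 and 46.8, 23.4 and 21.8 in scramble, with −0.59 ± 0.061 (SE), adjusted p = 6.00e-08. Mvk, the kinase before it, was −0.14 ± 0.053 (SE; adjusted p = 0.0369), and Mvd did not differ detectably (−0.078 ± 0.048, SE). Idi1, the isomerase of the isoprenoid unit, was −0.32 ± 0.12 (SE; adjusted p = 0.0283) at 4.20 and 4.92 CPM in pool 2.

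Fdps, which makes farnesyl diphosphate, had 46.3 and 49.4 CPM in pool 2, against 67.3 and 61.6 with pool 1, 70.4 and 68.0 with pool 3, 62.4 and 63.9 with pool 4 and 132, 63.4 and 57.9 in scramble. Pool 2 was below every other library, at −0.40 ± 0.041 (SE), adjusted p = 5.21e-08 against the other pools. Sqle, squalene epoxidase, had 122 and 132 CPM in pool 2, against 159.7 and 142 with pool 1, 156 and 154 with pool 3, 148 and 153 with pool 4 and 154, 159.9 and 154 in scramble, with −0.20 ± 0.039 (SE), adjusted p = 1.74e-04. Lss, which closes squalene epoxide to lanosterol, had 95.1 and 107 CPM in pool 2, against 135 and 131 with pool 1, 153 and 160.2 with pool 3, 125 and 135 with pool 4 and 109, 149 and 142 in scramble, with −0.41 ± 0.039 (SE), adjusted p = 2.02e-08. Sqle and Lss in pool 2 were both below the other 9 libraries, with the closest Lss value in scramble replicate 1. Fdft1, which stands between Fdps and Sqle, did not differ detectably from the other pools (0.046 ± 0.036, SE).

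After lanosterol, Cyp51 was lower in pool 2 than in the other pools by 0.31 on the log2 scale (adjusted p = 8.82e-08). Nsdhl, which acts with Msmo1 and Hsd17b7 to remove sterol methyl groups, had 67.0 and 72.1 CPM in pool 2, against 96.0 and 91.6 with pool 1, 97.3 and 96.1 with pool 3, 89.1 and 93.1 with pool 4 and 94.4, 93.0 and 86.2 in scramble, with −0.38 ± 0.035 (SE), adjusted p = 1.27e-08. Its partners did not match it, with −0.019 ± 0.032 for Msmo1, which was not called, and −0.13 ± 0.045 for Hsd17b7 (SE; adjusted p = 0.0228). Tm7sf2, a sterol reductase, averaged 24.5 ± 0.596 CPM in pool 2 (SD, n = 2), against 33.9 ± 1.47 over the 6 libraries of pools 1, 3 and 4 (SD), with −0.42 ± 0.051 (SE), adjusted p = 7.55e-07. Ebp differed by −0.15 ± 0.038 (SE; adjusted p = 0.00334) and Sc5d by 0.086 ± 0.030 (SE; adjusted p = 0.0222). Sc5d was the only sterol enzyme called higher in pool 2 than in the mean of the other pools. Its group means were 395, 362, 297 and 377 CPM in pools 1 to 4, so pool 2 was above pool 3 alone. Dhcr7, which finishes one of the routes to cholesterol, at chr7:143823145-143848410, plus strand, had 80.5 and 81.4 CPM in pool 2, against 127 and 124 with pool 1, 124 and 129 with pool 3, 116 and 117 with pool 4 and 95.4, 110.1 and 96.5 in scramble. The pool 2 values were below, and those of pools 1, 3 and 4 above, every scramble library, and the difference between them was −0.55 ± 0.031 (SE), adjusted p = 4.01e-12. The share of all genes with such an order was not counted.

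**Figure D5:**
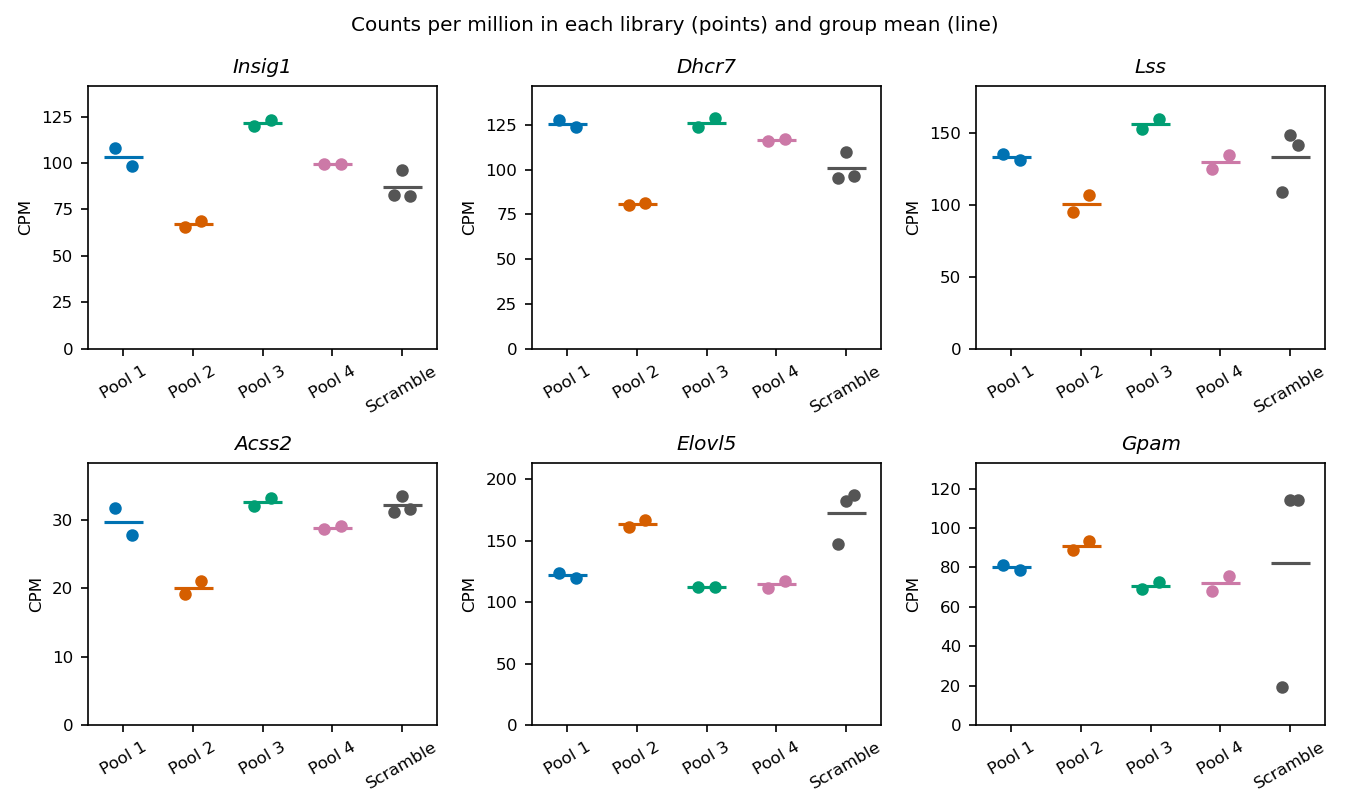
CPM in each library (points) and the group mean (line) for Insig1, Dhcr7, Lss, Acss2, Elovl5 and Gpam, with pools 1 to 4 to the left of scramble and each axis starting at 0. Pool 2 is the lowest group for the first 4 genes and the highest of the 4 pools for Elovl5 and Gpam, and scramble replicate 1 is far below replicates 2 and 3 for Gpam.

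In the fatty acid branch, Acss2, which makes acetyl-CoA from acetate, at chr2:155517948-155585724, plus strand, had 19.1 and 21.1 CPM in pool 2, against 31.7 and 27.7 with pool 1, 31.9 and 33.2 with pool 3, 28.7 and 29.1 with pool 4 and 31.2, 33.5 and 31.6 in scramble. It was the 1 gene of that branch whose pool 2 libraries lay below the other 9 libraries, with −0.54 ± 0.058 (SE), adjusted p = 1.12e-07 against the other pools. Scd1 had −0.41 ± 0.048 (SE; adjusted p = 4.40e-07) and Scd2 −0.14 ± 0.037 (SE; adjusted p = 0.00316), so both desaturases were lower in pool 2. Fads2 was lower by 0.31 on the log2 scale (adjusted p = 1.53e-06). Smaller decreases were called for Acly (−0.17), Fasn (−0.16) and Elovl6 (−0.14), with adjusted p of 1.10e-04, 1.79e-04 and 0.00322. Acaca (−0.025), Fads1 (0.022) and Me1 (0.029) were not called.

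Elovl5, at chr9:77917364-77984519, plus strand, ran the other way. Against its 161 and 166 CPM in pool 2 stood 124 and 119.8 CPM with pool 1, 112 and 112 with pool 3 and 112 and 117 with pool 4, a difference of 0.55 ± 0.029 (SE), adjusted p = 1.11e-12. Setting aside scramble replicate 1, Elovl5 was lower than scramble by 0.18 on the log2 scale in pool 2, 0.66 with pool 1, 0.80 with pool 3 and 0.75 with pool 4. Gpam followed the same order, with 0.35 ± 0.036 (SE; adjusted p = 7.49e-08) between pool 2 and the others.

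Both pool 2 libraries were below the other 6 pool libraries for 15 of 21 sterol and 7 of 13 fatty acid genes, against 31.6% of all genes, and above them for 1 and 2, against 18.7%. They were below the other 9 libraries, scramble included, for 12 sterol genes and 1 fatty acid gene, against 4.95% of all genes. The counts for pool 2 against the other pools were 14 to 17 sterol and 7 to 9 fatty acid genes when any 1 pool library was left out. Calls of Mvk, Hsd17b7, Idi1, Sc5d, Scd2 and Elovl6 were lost in at least 1 of those fits. Scd2 and Elovl6 were lost only without pool 2 replicate 1, and Hsd17b7 and Idi1 without replicate 1 of pool 1, pool 2 or pool 3. Sc5d was lost without pool 2 replicate 2 or pool 3 replicate 1. Mvk was lost without either pool 2 library, pool 1 replicate 1, pool 3 replicate 2 or pool 4 replicate 2. Without pool 2 replicate 1 their differences were −0.14 for Mvk, −0.063 for Hsd17b7, −0.21 for Idi1, −0.074 for Scd2 and −0.090 for Elovl6, none called. Without pool 2 replicate 2 that of Sc5d was 0.037, not called. A fit of all 11 libraries, which includes scramble replicate 1, called 3 sterol and 2 fatty acid genes for the same contrast. The share of all genes called in that fit is not given here, so the smaller counts may not be particular to these genes.

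Other measures also differed between pool 2 and the other pools. Akt1 was lower in pool 2 than in the mean of pools 1, 3 and 4, with a log2 difference of −0.24 ± 0.044 (SE), adjusted p = 1.02e-04, and pool 3 had the highest Akt1 of the pools. Of 6 theca and stroma markers 5 reached 1 CPM, and their summed level was 3507 to 3612 CPM in pool 2, against 2443 to 2902 in the other pools and 3387 to 4437 in scramble, while Cyp17a1, which defines steroid-making theca cells, stayed at or below 0.460 CPM. Col1a1 and Acta2, with medians over the libraries of 1491 and 1121 CPM, held most of this theca and stroma sum. Of 4 surface epithelium markers all reached 1 CPM, with sums of 92.1 to 98.0 CPM in pool 2, 60.3 to 80.5 in the other pools and 90.1 to 115 in scramble. In both sums pool 2 lay within the range of the scramble libraries. Scarcer marker sets went the other way. Endothelial sums were 7.66 to 8.86 CPM in pool 2, 9.58 to 14.1 in the other pools and 3.34 to 8.18 in scramble. Fat cell sums were 2.91 to 2.95 CPM in pool 2, 3.41 to 5.07 in the other pools and 2.14 to 6.31 in scramble. The part of these measures in the lower lipid genes of pool 2 was not tested.

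Reads of overlapping genes are a limit for 13 members. Exons of 4 members overlap another annotated gene on the same strand, among them Fdps with Gm43738 over 26.7% of its exon bases and Tm7sf2 with Vps51 over 12.1%. The strand setting of the counting is not given in the sources used here, so reads of Fdft1, 18.3% of whose exon bases overlap Ctsb on the opposite strand, and of the other members with an antisense overlap may also hold reads of the partner.

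Related genes outside the 34 were counted in 4 lists. Of 10 other sterol synthesis genes and SREBP2 targets, 0 were called in the mean of the pools with all libraries (2 at an unadjusted p below 0.05, against 26.5% of all genes), and 4 were lower and 1 higher without scramble replicate 1, against 19.9% and 15.7% of all genes. Against the other pools, pool 2 was lower for 6 of the 10, where 22.8% of all genes were lower and 24.7% higher, led by Aacs, which makes acetoacetyl-CoA (−0.45 ± 0.030, SE), and including Stard4, a sterol carrier (−0.28 ± 0.044), and higher for 1, Lbr, a sterol reductase of the nuclear envelope (0.43 ± 0.037).

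Of 11 genes for SREBP processing and turnover, 1 was called with all libraries in the mean of the pools, against 6.37% of all genes. This was the ubiquitin-conjugating enzyme Ube2g2 (−0.47 ± 0.093 (SE), adjusted p = 0.0234, and −0.33 ± 0.036 without scramble replicate 1). In the fit without that library 5 were higher and 1 lower, against 15.7% and 19.9% of all genes, and against the other pools pool 2 was lower for 4, among them the protease Mbtps2 that cleaves SREBPs (−0.24 ± 0.034, SE) and Insig2 (−0.20 ± 0.031), and higher for 2. Of 6 LXR receptors and targets, which act when sterols are high, 0 were called with all libraries (3 at an unadjusted p below 0.05, against 26.5% of all genes) and 3 were lower without scramble replicate 1, against 19.9% of all genes. Abca1, the cholesterol exporter, had 137 and 144 CPM in pool 2, against 85.7 and 79.9 with pool 1, 57.2 and 59.0 with pool 3, 76.8 and 79.5 with pool 4 and 42.3, 139 and 154 in scramble. It was higher in pool 2 than in the other pools, at 1.02 ± 0.032 (SE), adjusted p = 2.74e-16, and pool 2 overlapped scramble replicates 2 and 3. Of 20 other fatty acid and glycerolipid genes tested, 2 were lower with all libraries, against 4.75% of all genes. These were Mid1ip1, which activates acetyl-CoA carboxylase (−0.74 ± 0.11 (SE), adjusted p = 0.00739, and −0.58 ± 0.046 without scramble replicate 1), and G6pdx, which supplies NADPH (−0.40 ± 0.060 (SE), adjusted p = 0.00808, and −0.40 ± 0.036 without it). Both were higher in pool 2 than in the other pools, at 0.71 ± 0.044 and 0.46 ± 0.028 (SE), and of the 20 genes pool 2 was lower for 5 and higher for 5, close to the shares of 22.8% and 24.7% over all genes. Without scramble replicate 1, 9 of the 20 were lower and 2 higher in the mean of the pools, against 19.9% and 15.7% of all genes.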

How the data were processed

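The 34 genes, the other gene lists and the tests were chosen with earlier results of these data known. Per the labels' protocols, the input was 1.3 µg of total RNA, the kit made stranded mRNA libraries, and single reads had 75 bases. Tools named in the submitters' processing notes are TopHat2, featureCounts 1.5.0-p2, cutadapt 1.9.1, DESeq2, FastQC 0.11.5 and bcl2fastq 2.15.0, with the build mm10. Their order, settings, annotation and strand setting were not stated there. The deposited files hold raw counts as whole numbers for each gene, without normalization by the authors. The 92 ERCC sequences, 0.268% to 0.788% of a library's counts, were left out of totals and tests. The authors' deposited table, named for the pools against scramble, has columns for a mean signal (of normalized counts), log2 fold changes with standard errors, a test score, and raw and adjusted p-values. The design behind it is not stated.

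The test was that of edgeR 4.0.16, run in R 4.3.3 (filterByExpr, TMM scaling, two-sided quasi-likelihood F test, no minimum fold), which was checked on simulated counts. Pools against scramble used all 11 libraries in 5 groups, so that each pool weighs equally in the mean of the pools. Comparisons among pools used the 8 pool libraries in 4 groups, with 3 degrees of freedom for the test of any difference. Standard errors are the log2 difference divided by the square root of F. CPM is per library total, with no composition factor (TMM factors were 0.970 to 1.03). Alternatives were RLE factors, library totals, no low-count filter, DESeq2 1.42.0, a 2-group design, a fit of all 11 libraries for the comparisons among pools, a replicate block, and leaving out each library. Library totals without scramble replicate 1 were added after seeing the data.

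Per-library values are given for 25 genes by rule: fixed regulators and rate-controlling enzymes, and in each branch the 4 lowest p-values of the comparisons. Those of Acat2 and Pmvk, outside that rule, and of the genes of other lists were added after their values were seen, as were those of Hsd17b7 in scramble and Idi1 in pool 2. No 2 libraries of 1 group agreed within sampling noise (chi-square per degree of freedom at least 2.72). Gene positions and transcript lengths are from GENCODE vM21 and promoters from RefSeq (GRCm38.p6); a length was found for 92.7% of genes tested. The siRNA sequences were not used here, and values of some genes of the other lists are not reported here.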

Additional observations from a re-analysis of the deposited data

Results flagged for a closer look

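The results below were singled out because an effect differed between pools by a test of the difference itself. Values are log2 differences of pool 2 from the mean of pools 1, 3 and 4, from edgeR's quasi-likelihood test with a Benjamini-Hochberg adjusted p below 0.05, a level that 47.5% of all genes tested passed.

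In the sterol branch pool 2 was lower for Insig1 (−0.63), Pmvk (−0.59), Dhcr7 (−0.55), Acat2 (−0.49), Tm7sf2 (−0.42), Lss (−0.41), Fdps (−0.40), Nsdhl (−0.38), Hmgcs1 (−0.36), Idi1 (−0.32), Cyp51 (−0.31), Sqle (−0.20), Ebp (−0.15), Mvk (−0.14) and Hsd17b7 (−0.13). It was higher for Scap (0.15) and Sc5d (0.086). For Sc5d, pool 2 averaged 362 CPM, above pool 3 (297) but below pool 1 (395) and pool 4 (377).

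In the fatty acid branch pool 2 was lower for Acss2 (−0.54), Scd1 (−0.41), Fads2 (−0.31), Acly (−0.17), Fasn (−0.16), Scd2 (−0.14) and Elovl6 (−0.14). It was higher for Elovl5 (0.55) and Gpam (0.35).

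A further 3 genes differed among the 4 pools without being called in that contrast. The adjusted p of the test of any difference was 0.00103 for Fdft1, 0.0165 for Msmo1 and 8.66e-05 for Me1. Pool 3 was the lowest group for Fdft1, with 117 ± 2.06 CPM, against 137 ± 10.3 with pool 1, 126 ± 5.13 with pool 2 and 126 ± 0.156 with pool 4 (SD, n = 2 each). It was also the lowest for Me1, with 539.8 ± 0.305 CPM, against 610.4 ± 28.6 with pool 1, 577 ± 0.741 with pool 2 and 613 ± 7.91 with pool 4 (SD, n = 2 each).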

How the results depend on the processing

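Counts of called genes are given as sterol genes and then fatty acid genes. The share of all genes called in each fit is not given beside them, so a change may not be particular to these genes. For the mean of the pools (4 and 1), DESeq2 gave 6 and 3, library totals 2 sterol genes, the 2-group design 0 and 0, and the replicate block 0 fatty acid genes. In pool 1 (0 and 0) DESeq2 gave 1 fatty acid gene, and in pool 2 (0 and 0) it gave 2 and 1. In pool 3 (4 and 1) DESeq2 gave 6 and 2, and library totals and no low-count filter gave 2 sterol genes each. In pool 4 (0 and 1) DESeq2 gave 3 sterol genes, and no filter and the replicate block gave 0 fatty acid genes. A fit of all 11 libraries gave 1 and 0 for any difference among pools (18 and 10) and 3 and 2 for pool 2 against pools 1, 3 and 4 (17 and 9). RLE factors changed no count past 1.5 times.

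Leaving out 1 library gave 0 to 12 and 0 to 12 for the mean of the pools, 0 to 11 and 0 to 8 in pool 1, 0 to 18 and 0 to 10 in pool 2, 0 to 10 and 0 to 11 in pool 3, and 0 to 9 and 0 to 9 in pool 4, with the upper ends from the fit without scramble replicate 1. It gave 15 to 20 and 9 to 10 for any difference among pools, and 14 to 17 and 7 to 9 for pool 2 against the other pools.

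Library totals without scramble replicate 1, tried after seeing the data, gave 12 and 9 for the mean of the pools, 7 and 4 in pool 1, 18 and 10 in pool 2, 10 and 6 in pool 3, and 11 and 6 in pool 4. Called values that changed sign against the fit of all 11 libraries did so without scramble replicate 1, and for these the range over all fits that leave out 1 library was as follows. For the mean of the pools it was −0.13 to 0.16 for Acly, −0.17 to 0.25 for Fasn and −0.22 to 0.31 for Hsd17b7. In pool 1 it was −0.15 to 0.16 for Elovl6 and −0.18 to 0.35 for Hsd17b7, and in pool 2 −0.34 to 0.44 for Gpam. In pool 3 it was −0.16 to 0.13 for Acly, −0.16 to 0.26 for Fasn, −0.40 to 0.21 for Pmvk and −0.16 to 0.22 for Scd1. In pool 4 it was −0.15 to 0.27 for Fasn and −0.25 to 0.28 for Hsd17b7. Under library totals without scramble replicate 1, the values that changed sign were Fasn (−0.11 in the mean), Fdps (0.19 in pool 3), Gpam (−0.33 in pool 2), Hsd17b7 (−0.16 in the mean, −0.19 in pool 4) and Pmvk (0.29 in pool 3, 0.21 in pool 4). The cause of these changes was not tested.

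Replicate numbers did not pair the libraries: over 20 same-numbered pairs the correlation of deviations from the group means ran from −0.046 to 0.073. With the replicate block the sterol count was 4 for the mean of the pools and 17 for pool 2 against the other pools. The lowest count of a member in a library was 112 reads, for Idi1, whose SE of 0.12 in the comparison of pool 2 with the other pools was the largest of the 34 genes there. The shares of counting error and of spread between libraries in it were not tested.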
